A study of Mus musculus with 4 samples.

Results

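The genes described here are 54 genes of the cell division cycle, taken apart by the phase in which each is known to act. They were chosen by name from 13838 genes measured in bronchoalveolar lavage cells of C57BL/6 mice: 16 genes of S phase, 33 genes of G2 and mitosis (G2/M), and 5 genes that belong to neither list because they serve several phases (Stmn1, Tubb5, Tuba1b, H2afz and H2afv). Each of the 4 groups is 1 library made from the pooled cells of 7 mice, with no replicate. Control mice breathed filtered air and were given saline (PBS) by the nose. HDM mice breathed filtered air and were given 10 µg of house dust mite, an allergen, by the nose on days 22 and 29, with allergen challenge on days 36, 37 and 38. APM mice inhaled aerosolized Afghanistan particulate matter in whole-body chambers for 12 days (6 hours daily, 5 mg/m3), ending 9 days before the nasal doses began, and were then given saline. HDM+APM mice had both exposures, and the cells of all groups were taken on day 39. With 1 pooled library per group no difference between groups was tested, and every interval below is a 95% interval that covers counting error only. Levels are given within the authors' 17 cell clusters.

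Before a cell divides it copies its DNA in S phase, which needs nucleotide synthesis (Rrm1, Rrm2, Tyms, Tk1, Dut), a helicase that opens the double helix (Mcm2 to Mcm7), the sliding clamp Pcna and its partner 2810417H13Rik (Pclaf), the ligase Lig1 and new histones (Hist1h2ap). In G2 and mitosis the cell runs on the kinase Cdk1 with cyclins Ccna2, Ccnb1 and Ccnb2, condenses its chromosomes (Top2a, Smc2, Smc4), builds a spindle and kinetochores (Kif11, Tpx2, Cenpa, Cenpe, Cenpf, Aurka, Aurkb) and leaves mitosis when the anaphase-promoting complex with Cdc20 and Ube2c removes the cyclins. Alveolar macrophages of the resting lung largely maintain themselves by dividing in place. Genes of S phase are textbook targets of the E2F transcription factors, while many genes of G2/M carry a cell-cycle genes homology region (CHR) beside CCAAT boxes, which the DREAM and MuvB complexes and NF-Y bind.

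The promoter sequences of the members differed by list in the letters known for these factors. A RefSeq promoter window (GRCm38.p6, 250 bases before the start site to 50 after it) was matched by name for 45 of the 54 members. Searched letters were TTTGGCGC, TTTCCCGC, TTTGCCGC and TTTCGCGC for E2F, TTTGAA and TTCGAA for the CHR, and CCAAT, on both strands, with TTCGAA its own reverse complement. E2F letters stood in the windows of 6 of 13 matched S members (46.2%), 1 of 28 matched G2/M members (3.57%, Cdk1) and 2.60% of the 27025 genes of the table. The 6 were 2810417H13Rik, Mcm3, Mcm5, Mcm6, Mcm7 and Lig1. CHR letters stood in 23 of 28 G2/M members (82.1%), against 2 of 13 S members (15.4%, Mcm2 and Mcm7) and 21.7% of all genes. A CHR and a CCAAT box in the same window were found for the same 23 G2/M members, and for 8.61% of all genes. Of the 5 matched G2/M members whose windows hold no CHR letters, Birc5 and Nusap1 had no CCAAT either, and Ccnb1, Cenpe and Cks2 had CCAAT alone.

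The S members with the most UMIs among those with E2F letters are printed below with those letters in capitals, 5′ to 3′ along the gene. 2810417H13Rik (chromosome 9, plus strand, window chr9:65890073-65890372) has 1 match that begins 5 bases before the start site, and Mcm3 (minus strand, chr1:20820263-20820562) has 2 matches, after the start site.
2810417H13Rik: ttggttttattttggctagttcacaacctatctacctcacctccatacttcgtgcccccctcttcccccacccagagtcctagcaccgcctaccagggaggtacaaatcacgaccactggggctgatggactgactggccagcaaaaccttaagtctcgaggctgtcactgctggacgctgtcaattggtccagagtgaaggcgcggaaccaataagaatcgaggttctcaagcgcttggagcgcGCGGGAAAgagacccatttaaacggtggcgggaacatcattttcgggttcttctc
Mcm3: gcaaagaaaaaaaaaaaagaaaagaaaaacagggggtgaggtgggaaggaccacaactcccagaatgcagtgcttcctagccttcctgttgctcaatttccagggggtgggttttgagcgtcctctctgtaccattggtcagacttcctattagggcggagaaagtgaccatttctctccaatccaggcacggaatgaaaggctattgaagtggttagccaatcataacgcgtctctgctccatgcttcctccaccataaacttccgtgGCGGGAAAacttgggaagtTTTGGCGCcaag
The G2/M windows are shown with CHR and CCAAT letters in capitals. They are Hmgb2 (plus strand, chr8:57511593-57511892) and Cks1b (minus strand, chr3:89418242-89418541), the G2/M members with the most UMIs among those with a CHR, and Ccnb2 (minus strand, chr9:70421505-70421804), added after its values were seen. In each of the 3 a CHR match lies close to the start site, at base -30, -17 and 5, with CCAAT letters upstream of it.
Hmgb2: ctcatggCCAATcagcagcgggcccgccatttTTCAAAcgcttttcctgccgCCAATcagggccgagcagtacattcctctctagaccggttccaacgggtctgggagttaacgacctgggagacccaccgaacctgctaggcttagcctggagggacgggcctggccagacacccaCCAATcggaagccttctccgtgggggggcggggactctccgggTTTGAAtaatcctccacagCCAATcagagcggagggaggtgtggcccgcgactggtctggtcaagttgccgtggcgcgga
Cks1b: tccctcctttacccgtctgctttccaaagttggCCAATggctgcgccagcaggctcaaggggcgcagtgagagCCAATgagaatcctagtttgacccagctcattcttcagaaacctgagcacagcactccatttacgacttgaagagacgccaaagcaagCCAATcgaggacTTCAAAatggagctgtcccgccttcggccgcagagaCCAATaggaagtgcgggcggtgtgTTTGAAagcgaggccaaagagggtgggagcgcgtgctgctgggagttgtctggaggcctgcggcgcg
Ccnb2: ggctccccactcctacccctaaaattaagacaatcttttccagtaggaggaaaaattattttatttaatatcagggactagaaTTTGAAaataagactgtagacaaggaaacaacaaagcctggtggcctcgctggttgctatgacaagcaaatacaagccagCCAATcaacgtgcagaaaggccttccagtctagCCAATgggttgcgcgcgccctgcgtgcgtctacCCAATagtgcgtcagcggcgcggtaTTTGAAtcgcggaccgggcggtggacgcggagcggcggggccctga
These matches are letters in a window and do not show that a factor was bound.

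**Figure D1:**
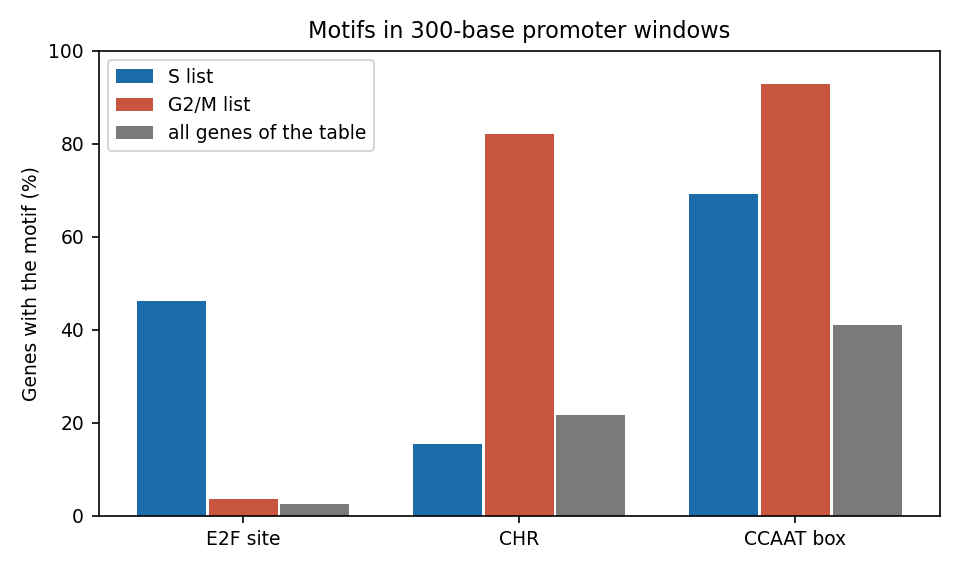
Percent of genes whose 300-base RefSeq promoter window holds the letters of an E2F site, a CHR or a CCAAT box, for the 13 matched S members, the 28 matched G2/M members and all 27025 genes of the table. The E2F bar is tallest for the S list (46.2%) and the CHR bar for the G2/M list (82.1%).

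The matrix held 33643423 unique molecular identifiers (UMIs, tags that mark single captured mRNA molecules) in 9925 cells. The control library held 3918 cells at a median of 3417 UMIs per cell, HDM 994 cells at 1380, APM 3890 cells at 2637 and HDM+APM 1123 cells at 4780. Levels below are CPM, the UMIs of a gene or list scaled to the summed UMIs of the same cells. Libraries of this kind count transcript ends, so a CPM does not scale with gene length. Genes can still differ in how fully their transcripts are captured and counted, so levels are set side by side between genes only roughly. The authors name the clusters Macrophage 7 and Macrophage 10 as proliferating. Both carry alveolar macrophage markers, at a summed 12174 CPM for 10 markers in Macrophage 7 and 13342 in Macrophage 10, against 6481 to 13436 in Macrophages 1 to 6 and 9. Markers of T cells (7.44 and 0 CPM) and B cells (11.6 and 14.0 CPM) were near 0 in both. A set of 42 cell barcodes occurred in more than 1 library.

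Both lists were highest in Macrophage 7, and Macrophage 10 came next for G2/M but not for S. Macrophage 7 (572 cells) held the S list at 4281 CPM (4198 to 4364) and the G2/M list at 5477 CPM (5384 to 5571). Macrophage 10 (50 cells, of which 39 came from APM, 9 from control and 1 each from the others) held the G2/M list at 4216 CPM (3887 to 4567) and the S list at 524 CPM (413 to 657), an interval that overlaps that of T cells (547 CPM, 505 to 591). Among UMIs of both lists, the S share was thus 43.9% (43.2 to 44.5) in Macrophage 7 and 11.1% (8.80 to 13.7) in Macrophage 10. Macrophages 1 to 6 and 9, the 6761 macrophages of the other numbered clusters apart from Macrophage 8, held S at 313 CPM (306 to 320) and G2/M at 591 CPM (581 to 601), an S share of 34.6% (34.0 to 35.3). The low share of Macrophage 10 depends on not counting the histone variants H2afz and H2afv as S. With them added to S and Stmn1, Tubb5 and Tuba1b to G2/M, the shares were 40.5% in Macrophage 7 and 39.4% in Macrophage 10. Both variants went towards G2/M in the comparison within cells below (-9.59 and -4.83 percentage points with 1000 UMIs drawn). So did Hist1h2ap (-8.13) and 2810417H13Rik (-0.82), which were kept in the S list. That direction therefore does not settle on which list the variants belong. The clusters were drawn by the authors from the expression of these same cells, so these levels describe them and test nothing.

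**Figure D2:**
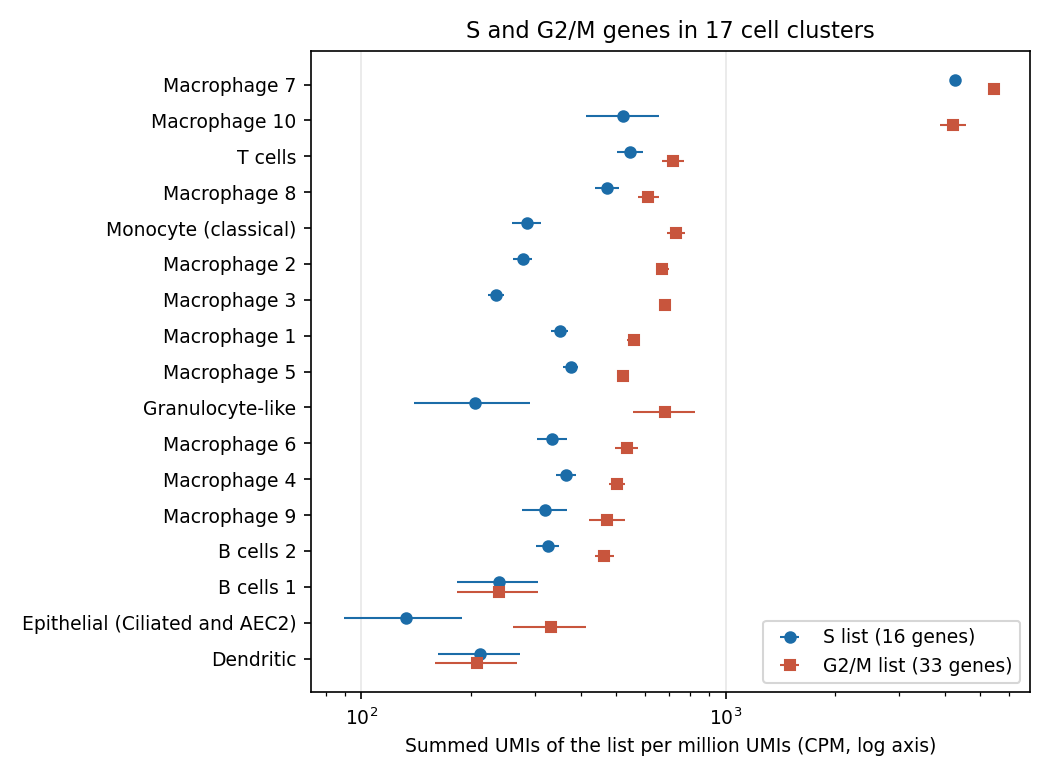
Summed CPM (log axis) of the 16 S genes (circles) and the 33 G2/M genes (squares) in each of the 17 clusters over all 4 libraries, with exact 95% Poisson intervals for counting error. Macrophage 7 is far to the right for both lists, Macrophage 10 for G2/M only (4216 against 524 CPM).

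Outside these clusters the order by S level began with T cells at 547 CPM (505 to 592) and Macrophage 8 at 473 (438 to 510), whose intervals overlap. It went on through Macrophage 5 at 375, Macrophage 4 at 365 and Macrophage 1 at 350, and ended with dendritic cells at 212, granulocyte-like cells at 205 (139 to 291) and epithelial cells at 132 (89.4 to 189). For the G2/M list the classical monocytes were highest outside the proliferating clusters, at 733 CPM (692 to 776), with T cells at 716 (667 to 767) overlapping them. Granulocyte-like cells stood next to Macrophage 3, at 681 CPM each, but with an interval of 556 to 826. Cks2 alone gave 357 CPM of the granulocyte-like sum, and Hmgb2 198 CPM. B cells 1 (238 CPM) and dendritic cells (208 CPM) were lowest for G2/M.

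All 16 S members had their highest level in Macrophage 7, at 6.42 to 91.3 times the level of Macrophages 1 to 6 and 9 (median 12.0). The clamp Pcna (chromosome 2, 132249162 to 132253314, minus strand, GRCm38 in GENCODE vM21, as for the other positions here), with the most UMIs of the list, was at 745 CPM (711 to 780) in Macrophage 7 and at 116 CPM in Macrophages 1 to 6 and 9, so it was also the S member with the smallest ratio. Its partner 2810417H13Rik (chromosome 9, 65890237 to 65903266, plus strand) was at 774 CPM against 8.47 CPM, the largest ratio (91.3, 78.9 to 106), and 85.4% of all its UMIs lay in Macrophages 7 and 10. Rrm2, the regulated subunit of ribonucleotide reductase (chromosome 12, 24708241 to 24714146, plus strand), was at 324 against 5.80 CPM, a ratio of 55.9, whereas its partner subunit Rrm1 was at 230 against 18.2 CPM, a ratio of 12.6. The 6 helicase subunits Mcm2 to Mcm7 were at 101 to 189 CPM in Macrophage 7, at ratios of 7.05 (Mcm3) to 13.1 (Mcm5). Hist1h2ap was at 666 against 21.4 CPM, but it is 1 of many near-identical histone genes among which the counting may have split reads, and most histone mRNAs of S phase lack the tail that these libraries capture, so its value is uncertain.

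Each of the 16 S members was lower in Macrophage 10 than in Macrophage 7 by at least 1.5-fold. No share over all genes is given beside this or the later counts for these clusters, and Macrophage 10 holds only 50 cells. For Gins2 the interval of the ratio includes 1 (0.48, 0.10 to 1.44). Rrm2, Lig1, Mcm5 and Mcm2 had no UMI among the 143010 UMIs of Macrophage 10, where 3 UMIs would be 21.0 CPM, while in Macrophage 7 they were at 324, 202, 128 and 101 CPM. Hist1h2ap had 1 UMI there (6.99 CPM). The S members with the highest levels left in Macrophage 10 were 2810417H13Rik at 161 CPM and Pcna at 105 CPM (58.7 to 173), the latter within the 95.2 to 134 CPM seen in Macrophages 1 to 6 and 9.

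The G2/M list divided between the clusters, with 25 of its 33 members highest in Macrophage 7 and 8 highest in Macrophage 10. Ccnb2, a cyclin B (chromosome 9, 70407692 to 70421547, minus strand), was at 573 CPM (456 to 712) in Macrophage 10 and 127 CPM (113 to 142) in Macrophage 7, 4.53 times higher (3.51 to 5.80). Cenpa, the centromeric histone H3 variant, was at 371 against 136 CPM (2.72, 2.00 to 3.65). Cks2, which binds Cdk1, was at 392 against 272 CPM (1.44, 1.07 to 1.89) and Birc5, survivin, at 420 against 302 CPM (1.39, 1.05 to 1.81). Hmmr and Cdc20 were also past 1.5-fold higher, at ratios of 1.75 and 1.69, but on few UMIs, with intervals of 0.77 to 3.48 and 0.71 to 3.5. Mki67 (182 and 180 CPM), Cdca3 (168 in both) and Ube2c (182 and 186) were level in both clusters within counting error. On the other side, 17 of the 33 were at least 1.5-fold lower in Macrophage 10, with no share over all genes to set beside it. They include Top2a, which untangles DNA (69.9 against 534 CPM), Nusap1 (35.0 against 191), Smc2 (48.95 against 208.4), Smc4 (119 against 249.3), Cdk1 (83.9 against 195) and Ccna2 (76.9 against 157). For Plk1, Aurka, Bub1, Kif20a, Kif22 and Kif11, also among the 17, the interval of the ratio includes 1 (upper bounds of 1.07 to 1.99).

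**Figure D3:**
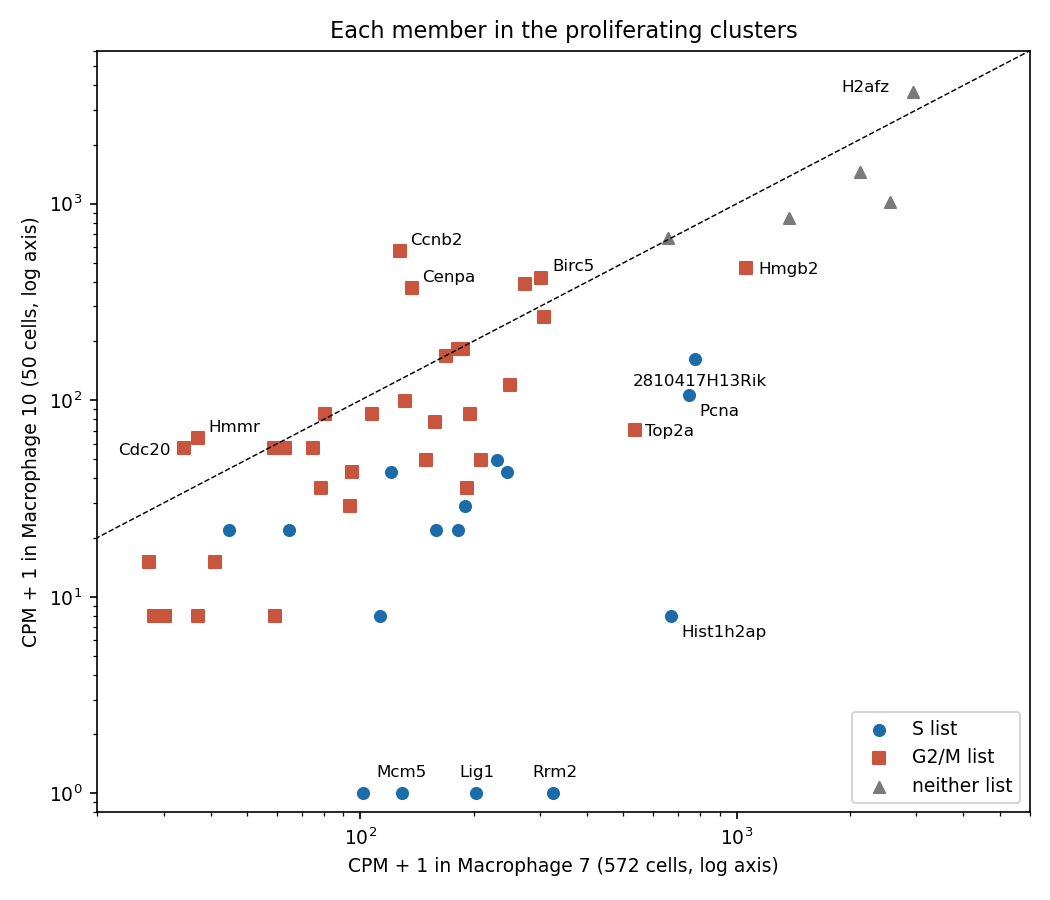
CPM plus 1 of each of the 54 members in Macrophage 7 (x axis) and Macrophage 10 (y axis), both log axes, with the dashed line marking equal levels. All S genes (circles) lie below the line, 4 of them at 0 CPM in Macrophage 10, while Ccnb2, Cenpa, Birc5 and Cks2 among the G2/M genes (squares) lie above it.

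Against Macrophages 1 to 6 and 9, the G2/M members were 2.58 to 68.7 times higher in Macrophage 7 (median 14.8). Ccna2 had the largest ratio, at 157 against 2.29 CPM, and Cenpf (42.6), Top2a (40.0), Kif11 (39.9), Nusap1 (36.7) and Ccnb2 (34.3) came next. The smallest ratios belonged to Cks2 (2.58, with 106 CPM in Macrophages 1 to 6 and 9), the checkpoint kinase Bub1b (2.73) and Cks1b (3.11, with 98.3 CPM there). The chromatin protein Hmgb2, with the most UMIs of the list, was at 1055 CPM (1015 to 1097) in Macrophage 7, 468 CPM in Macrophage 10 and 335 CPM in T cells. Of the 5 genes of neither list, the microtubule regulator Stmn1 was the most restricted, at 1378 CPM in Macrophage 7 and 846 in Macrophage 10 against 73.3 in Macrophages 1 to 6 and 9. The tubulins Tuba1b (2558, 1014 and 486 CPM) and Tubb5 (2123, 1454 and 393 CPM) followed the same order of clusters. H2afz, a histone variant made throughout the cycle, was higher in Macrophage 10 (3713 CPM) than in Macrophage 7 (2929 CPM), a ratio of 1.27 (1.16 to 1.38), and H2afv was at 664 and 654 CPM.

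In single cells the lists mostly occurred together in Macrophage 7. After 1000 UMIs were drawn from each cell, so that depth was equal, 376 of the 572 cells of Macrophage 7 held at least 2 S members and at least 2 G2/M members, 95 held 2 of the S list only, 60 of the G2/M list only and 41 of neither. In Macrophage 10, 39 of 50 cells held 2 of the G2/M list only, 4 both, 1 the S list only and 6 neither. With all UMIs used, 427 cells of Macrophage 7 had at least 20 UMIs of the 2 lists together. The S share in them ran from 2.44 to 88.6% with a median of 46.2%, and lay between 25 and 75% in 351 of them. In the 8 such cells of Macrophage 10 it ran from 0 to 20%.

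The phase of each member was then compared with the other members in the same cells. Among the 622 cells of Macrophages 7 and 10, the S share was taken in cells with and without a UMI of the gene, leaving that gene out of its own list. For all 33 G2/M members the S share was lower in cells with the gene, by 4.95 percentage points for Kif22 to 19.2 for Cenpa (median 9.86). Ube2c, Cdc20, Ccnb1 and Cenpf were near Cenpa at that end. For 14 of the 16 S members the S share was higher in cells with the gene, with Pcna at 17.6, Dut at 13.8, Lig1 at 12.9 and Mcm6 at 12.2 percentage points. The S list went against its label in 2 cases, 2810417H13Rik at -0.89 and Hist1h2ap at -6.36. Of the other 5300 genes with at least 50 cells on each side, 62.2% also went towards G2/M, with a median of -0.91 and quartiles of -2.93 and 1.09, so the direction alone was common among genes. With 1000 UMIs drawn from each cell, other genes went towards G2/M in 48.9% (median 0.07). The 20 G2/M members with enough cells did so in 20 of 20 cases, at a median of -7.69, and 12 of 14 S members went towards S, at a median of 7.98. Hist1h2ap (-8.13) and 2810417H13Rik (-0.82) again went the other way, Rrm2 was near 0, and the 5 genes of neither list all went towards G2/M, at -4.83 (H2afv) to -10.2 (Tubb5).

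**Figure D4:**
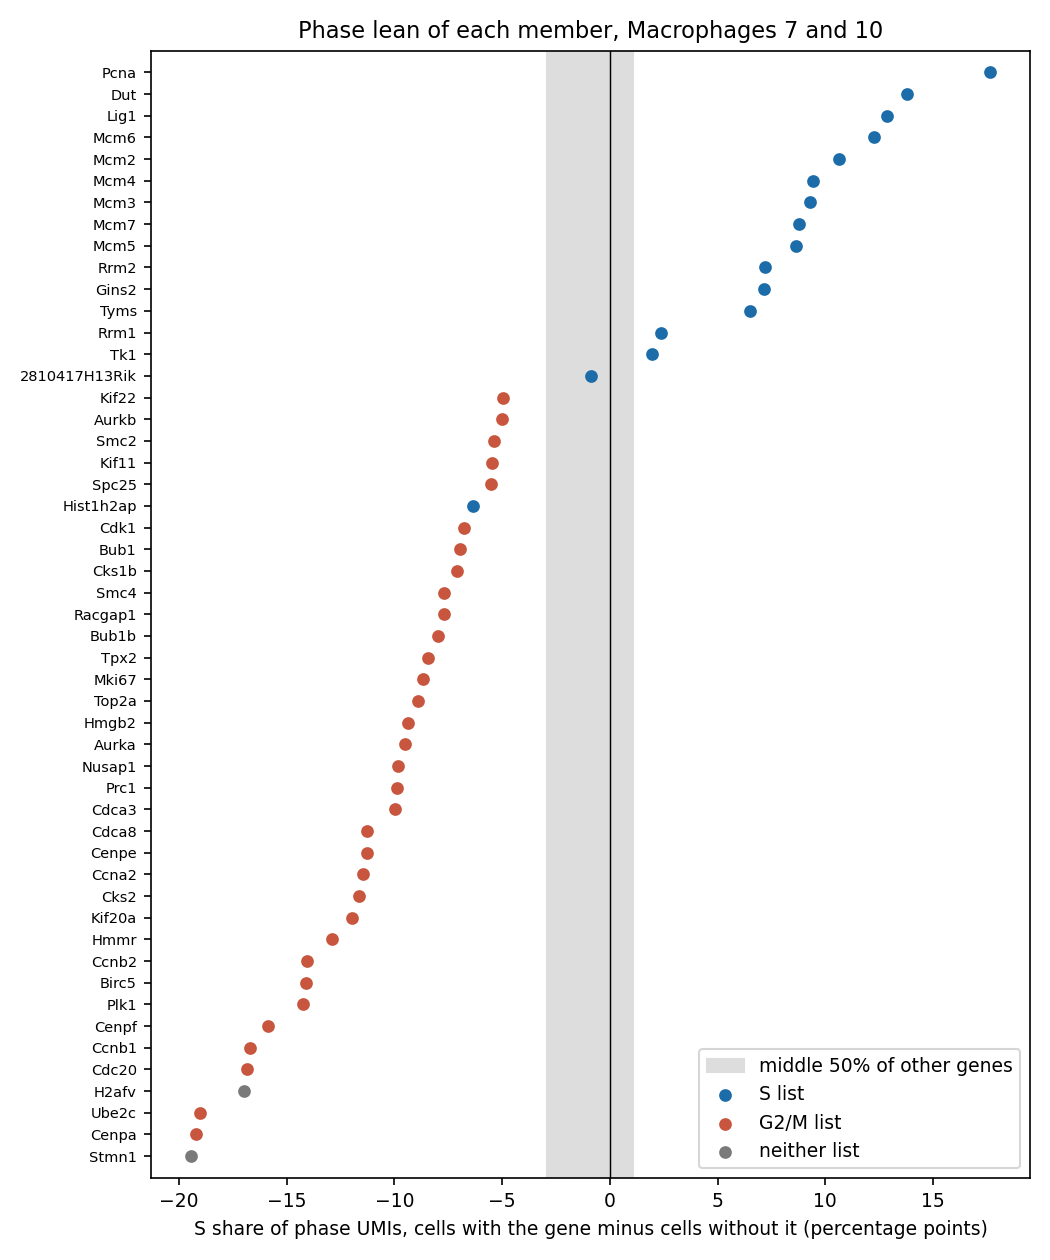
For each member, the S share of S plus G2/M UMIs in the cells of Macrophages 7 and 10 that hold the gene minus that in the cells that do not, in percentage points, all UMIs used. Members with fewer than 50 cells on either side (H2afz, Tuba1b, Tubb5) are not drawn. S genes lie to the right except 2810417H13Rik and Hist1h2ap, G2/M genes to the left, and the grey band spans the middle 50% of the other genes.

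Cells with several phase genes also occurred outside the proliferating clusters. At 1000 UMIs per cell, at least 3 of the 49 S and G2/M members were found in 90.2% of Macrophage 7 cells, 80.0% of Macrophage 10 cells and 5.71% (5.23 to 6.22) of the other cells, 499 of 8737. Of those 499, 363 held exactly 3 members. Before the draw the share was 42.6%, since it grows with depth. At least 5 members were found in 75% of Macrophage 7 cells and in 55 other cells (0.63%, 0.47 to 0.82). The 55 are a range of a score, not a cell type, and 21 of them held exactly 5 members while 81 more held 4. They were 12 of 308 classical monocytes (3.90%, 2.03 to 6.71), 11 of 417 cells of Macrophage 8 (2.64%, 1.32 to 4.67), 6 of 413 cells of B cells 2 (1.45%), 5 of 544 T cells (0.92%), 2 of 135 cells of Macrophage 9 (1.48%, 0.18 to 5.25), and 0 to 0.47% of each of Macrophages 1 to 6. Granulocyte-like cells, which no longer divide when mature, are shallow (median 692 UMIs). At 500 UMIs and 3 members they gave 0 of 207 cells, which allows a share of up to 1.45% counted as 3 cells and up to 1.77% by the exact interval, against 6.46% in Macrophage 8, 3.25% in classical monocytes, 2.42% in B cells 2, 1.87% in T cells, 0.66 to 1.57% in Macrophages 1 to 6 and 72.0% in Macrophage 7.

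The cells with at least 5 members were picked by these same genes, so their high list levels follow from the choice. The 12 classical monocytes, all from HDM+APM like the rest of their cluster, held the G2/M list at 9419 CPM and the S list at 2385 CPM. They carried 51.2% of the cluster's G2/M UMIs, and the other 296 cells held 372 CPM. Their depth (median 5207 UMIs) was that of the rest (5293), and alveolar macrophage markers summed to 10000 CPM in them and 11413 in the rest, recruited macrophage markers to 4159 and 7232. The 5 T cells held 7946 CPM of the S list and 4611 of the G2/M list, but 90 of their 193 S UMIs came from 1 HDM cell. The 2 of them from HDM+APM held 3926 CPM of S and 3781 of G2/M. At a median of 4024 UMIs the 5 were deeper than the other T cells (1398). T cell markers summed to 1482 CPM in them and 2203 in the rest, and alveolar macrophage markers to 700 and 968. In B cells 2 the 6 cells held 8951 CPM of G2/M and 4253 of S, with a median of 8931.5 UMIs against 5359 in the rest and B cell markers at 4395 against 3971 CPM. The 11 cells of Macrophage 8 held 4859 and 2773 CPM. No source used here says how doublets (droplets with more than 1 cell) were treated, and their part in these counts was not tested.

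Summed over every cell, the S list stood at 581 CPM in control, 578 in HDM, 752 in APM and 398 in HDM+APM, and the G2/M list at 938, 715, 1148 and 661 CPM. Without Macrophages 7 and 10 the S list was at 321 CPM (311 to 330) in control, 435 (406 to 466) in HDM, 315 (304 to 326) in APM and 315 (300.1 to 331) in HDM+APM. The G2/M list was at 618, 533, 558 and 576 CPM there, highest in control. Macrophages 7 and 10 held 63.0% of the S UMIs and 57.0% of the G2/M UMIs of APM, 48.7 and 38.9% of those of control, 27.2 and 27.9% of those of HDM, and 22.2 and 14.3% of those of HDM+APM. In HDM, 5 cells with at least 5 members carried 24.4% of the S UMIs outside the proliferating clusters, and without them the level was 333 CPM, against 311 in control, 310.0 in APM and 245 in HDM+APM computed the same way. In HDM+APM, 21 such cells carried 38.5% of the G2/M UMIs, and without them the G2/M level was 364 CPM. Computed the same way, the G2/M level was 459 CPM in HDM, 608 in control and 552 in APM. The makeup of the libraries differs, with T cells the largest cluster in HDM (493 of 994 cells), so these sums mix levels with cell types.

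**Figure D5:**
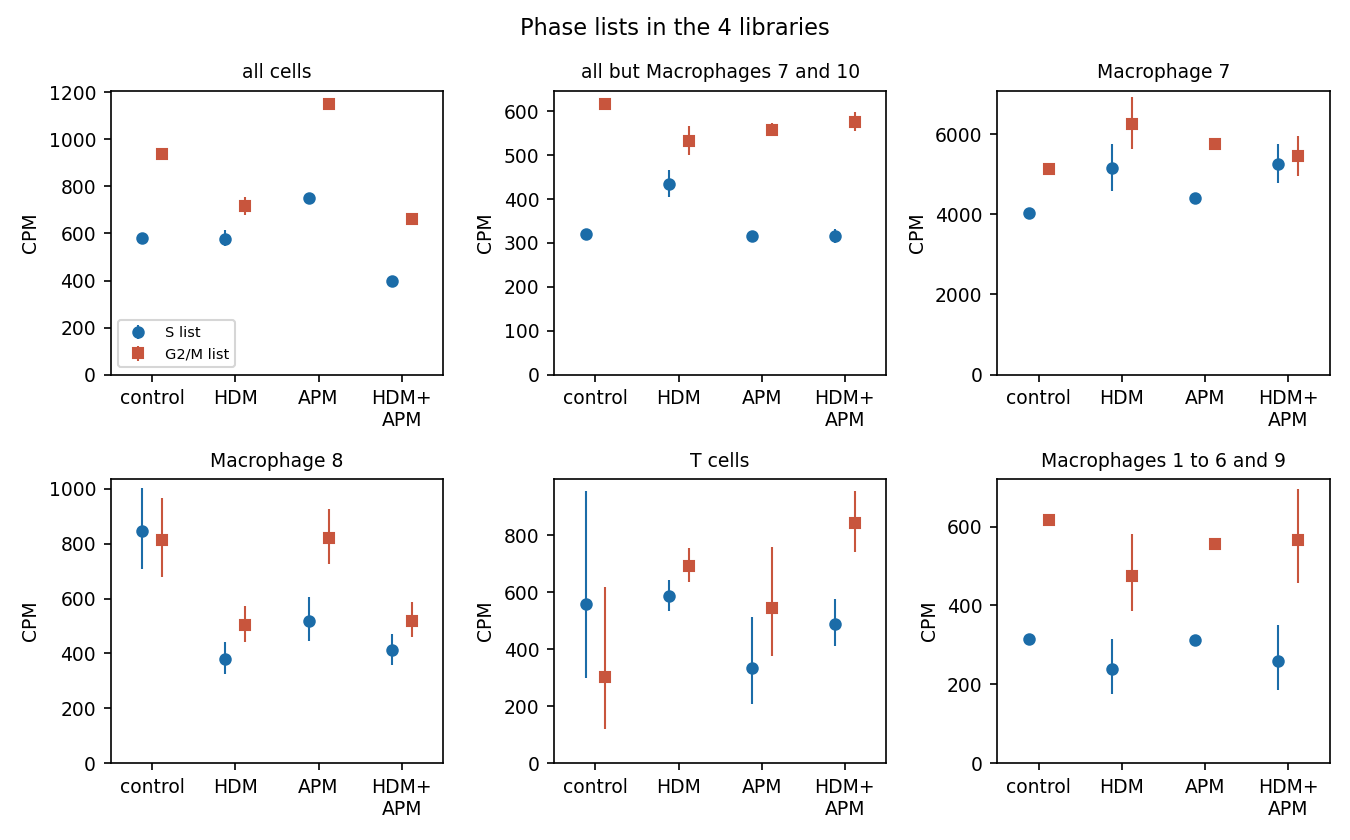
Summed CPM of the S list (circles) and the G2/M list (squares) in each library, with exact 95% Poisson intervals for counting error, for all cells, for all cells without Macrophages 7 and 10, and for 4 cell groups. APM is highest over all cells (752 and 1148 CPM). Once Macrophages 7 and 10 are left out, APM is close to control for S (315 and 321 CPM) and below it for G2/M (558 and 618 CPM).

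Within Macrophage 7 the S list was lowest in control, and its intervals in HDM and HDM+APM overlapped. For the G2/M list the intervals of control and HDM+APM overlapped, and so did those of HDM and APM. The S list was at 4023 CPM in control (241 cells, 3903 to 4146), 4394 in APM (307 cells, 4277 to 4514), 5148 in HDM (4582 to 5763) and 5261 in HDM+APM (4791 to 5764), with 12 cells each in the last 2. The G2/M list was at 5123 CPM in control (4988 to 5261), 6259 in HDM (5634 to 6934), 5753 in APM (5619 to 5890) and 5444 in HDM+APM (4965 to 5955). The S share was 44.0% (43.0 to 45.0) in control, 45.1% in HDM, 43.3% in APM and 49.1% (45.9 to 52.4) in HDM+APM. These intervals leave out the spread between cells. Among the 427 cells of Macrophage 7 with at least 20 UMIs of the lists, the share ran from 2.44 to 88.6%. Pcna was at 670 CPM in control, 1043 in HDM, 773 in APM and 1052 in HDM+APM. Its partner 2810417H13Rik was at 633, 889, 871 and 1064 CPM in the same order. Both were lowest in control. Hist1h2ap was at 671 CPM in control, 291 in HDM, 690 in APM and 515 in HDM+APM, lowest in HDM. Rrm1 was at 252, 530, 190 and 309 CPM and Rrm2 at 314, 633, 303 and 537 CPM, both reductase subunits higher in the libraries given HDM than in the other 2. Dut was at 221, 291, 256 and 343 CPM and Mcm3 at 183, 154, 196 and 183 CPM. Of G2/M members, Hmgb2 was at 948 CPM in control, 1129 in HDM, 1146 in APM and 1064 in HDM+APM. Top2a was at 521, 735, 520 and 766 CPM, again higher in both libraries given HDM. Cks2 was at 269, 85.5, 289.5 and 206 CPM, and Cks1b at 259, 257, 347 and 343 CPM. Smc4 was at 231, 239, 262 and 297 CPM and Smc2 at 173, 257, 241 and 160 CPM. Each value of HDM and HDM+APM comes from 12 cells.

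APM was set beside control to see how the dust exposure alone went with the members. In Macrophage 7 the S sum was 1.09 times control (1.05 to 1.14) and the G2/M sum 1.12 times (1.08 to 1.16). No member of the 16 or the 33 was past 1.5-fold in either direction on the scale of CPM plus 10, where 2.45% of the 7824 genes with at least 20 UMIs were higher and 3.85% lower. The median log2 ratio was 0.07 for S members and 0.11 for G2/M members, against -0.02 over all genes. The largest shifts were 2810417H13Rik at 871 against 633 CPM (1.38, 1.25 to 1.52) and Rrm1 at 190 against 252 CPM (0.76, 0.63 to 0.90) in the S list. In the G2/M list they were Smc2 at 241 against 173 CPM (1.39), Prc1 at 107 against 75.2 CPM (1.42), Cks1b at 347 against 259 CPM (1.34) and Aurka at 22.3 against 34.8 CPM (0.64, 0.38 to 1.08). With a pseudocount of 1 CPM, 1 member of the 49 was past 1.5-fold lower. Red cell markers summed to 4038 CPM in APM and 213 in control in these cells. Their part in the ratios was not tested.

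In Macrophages 1 to 6 and 9 the S sum was the same within counting error, at 312 CPM in APM and 315 in control (ratio 0.99, 0.95 to 1.04), and the G2/M sum was lower, at 555 against 618 CPM (0.90, 0.87 to 0.93). On the scale of CPM plus 10, again none of the 49 members was past 1.5-fold, where 0.8% of 10746 genes were higher and 0.484% lower. That scale understates changes at levels this low, with the median member at 12.7 CPM for S and 6.86 CPM for G2/M over all libraries. With a pseudocount of 1 CPM, 8 members were past 1.5-fold lower and 1 higher. The members furthest from control were Birc5 at 11.3 against 19.1 CPM, Cdca3 at 4.79 against 8.52, Top2a at 10.4 against 15.4, Rrm1 at 13.4 against 21.5, Hist1h2ap at 16.3 against 25.3 and Rrm2 at 3.73 against 7.36 CPM. Hmgb2 and Gins2 were higher, Hmgb2 at 111 against 87.3 CPM (1.27, 1.16 to 1.38) and Gins2, a part of the helicase complex, at 7.77 against 4.62 CPM (1.68, 1.19 to 2.39). APM cells lie mostly in Macrophages 4 and 6 and control cells in Macrophages 1 and 3. With the 7 clusters weighted equally the G2/M median log2 ratio moved from -0.17 to -0.013 and the S median from -0.05 to -0.17.

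Among single clusters with at least 50 cells in both, S sums were lowest relative to control in Macrophage 8 (0.61), Macrophage 9 (0.72, 0.53 to 0.96) and Macrophage 5. Macrophage 9 (65 APM and 70 control cells) held the G2/M list the other way, at 601 against 371 CPM (1.62, 1.28 to 2.05). In it 1 APM cell held 30 of the 168 G2/M UMIs, while the top control cell held 10 of 130. Of its 5 G2/M members with at least 20 UMIs, 4 were past 1.5-fold higher and none lower, where 7.9% of 3368 genes were higher and 12.6% lower. These were Hmgb2, Cks1b, Cks2 and Smc4, and with a pseudocount of 50 CPM 2 members were higher. Macrophage 5 (464 APM and 560 control cells), with at least 20 UMIs of every S member, held the S list at 313 against 428 CPM (0.73, 0.66 to 0.80). Its G2/M sum was 0.88 of control (0.81 to 0.95). In it 5 of 16 S members and no G2/M member were past 1.5-fold lower, and none was higher, where 2.85% of 8847 genes were lower and 1.07% higher. These were Mcm6 at 10.9 against 34.2 CPM (0.32, 0.19 to 0.51), 2810417H13Rik at 4.74 against 14.9, Hist1h2ap at 11.8 against 25.5, Rrm1 at 16.6 against 31.7 and Mcm3 at 22.3 against 40.4 CPM. The count rests on low levels, since with a pseudocount of 1 CPM 13 of the 49 members were past 1.5-fold lower and 1 was higher, and with 50 CPM none was. The S sums of Macrophages 1, 2 and 3 stood at 0.87 (0.68 to 1.11), 0.99 (0.87 to 1.12) and 0.83 (0.71 to 0.97) of control. Their G2/M sums stood at 0.98 (0.81 to 1.18), 0.98 (0.91 to 1.06) and 0.97 (0.89 to 1.05) of control. In Macrophage 1 (94 APM cells), 7 of 15 S members and 3 of 15 G2/M members were past 1.5-fold lower and none was higher, beside 13.8% of 8476 genes lower and 5.26% higher. In Macrophage 3 (179 APM cells), 3 of 14 S members and 1 of 27 G2/M members were lower and none was higher, beside 2.28% of 8981 genes lower and 1.54% higher. These counts too rest on low levels, and with 50 CPM no member was past 1.5-fold in either cluster. Markers of other cells were higher in APM in these clusters: red cell markers summed to 6362 against 245 CPM in Macrophage 5 and 9589 against 188 in Macrophage 9, and epithelial markers to 1250 against 259 and 1849 against 160 CPM. In Macrophages 1 and 3 red cell markers stood at 3403 against 254 and 4262 against 209.7 CPM, and epithelial markers at 1152 against 299.9 and 998 against 213 CPM. Alveolar macrophage markers were at 12054 and 11848 CPM in Macrophage 5. The part of these markers in the ratios was not tested.

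Macrophage 8 is the macrophage cluster with at least 50 cells in every library, and both lists were lower in it in the 2 libraries given HDM. The S list was at 845 CPM in control (708 to 1002), 381 in HDM (327 to 442), 520 in APM (444 to 605) and 411 in HDM+APM (356 to 471). The G2/M list was at 814 CPM in control, 503 in HDM, 822 in APM and 520 in HDM+APM. Relative to control, HDM was at 0.45 (0.36 to 0.57) for S and 0.62 (0.50 to 0.77) for G2/M. Relative to APM, HDM+APM was at 0.79 (0.64 to 0.98) for S and 0.63 (0.53 to 0.75) for G2/M. Between the HDM+APM and HDM libraries the ratios were 1.08 (0.88 to 1.33) and 1.03 (0.86 to 1.24), and between APM and control 0.61 (0.49 to 0.78) and 1.01 (0.81 to 1.26). The G2/M ratio of HDM+APM to HDM depends on how cells are weighted, at 1.94 as a mean over cells and 1.25 without cells with 5 members. Hist1h2ap was at 235 CPM in control but 17.4, 24.9 and 26.2 CPM in HDM, APM and HDM+APM. Of its 37 UMIs in control, 19 came from 1 cell, and without this gene the S ratio of HDM to control was 0.60 and that of APM to control 0.81. Pcna, by contrast, was at 127, 155, 168 and 121 CPM in control, HDM, APM and HDM+APM. Hmgb2 was at 203, 115, 212 and 92.6 CPM and Cks2 at 95.3, 26.1, 125 and 64.4 CPM, both lower in the libraries given HDM. The cells of this cluster differ between libraries in other ways too. Alveolar macrophage markers summed to 6725 CPM in control, 37219 in HDM, 5973 in APM and 34960 in HDM+APM, epithelial markers to 15567, 318, 3097 and 1476 CPM, red cell markers to 375, 6195, 19541 and 42.3 CPM, and median depth was 1176, 3056, 1218.5 and 4840 UMIs. Their part in these ratios was not tested.

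T cells could be compared between HDM+APM (136 cells) and HDM (493 cells), both given the allergen, the former after dust. The S list was at 489 CPM in HDM+APM and 586 in HDM (0.83, 0.69 to 1.01), and the G2/M list at 844 and 693 CPM (1.22, 1.04 to 1.42). In HDM+APM 2 cells with at least 5 members carried 52 of the 247 G2/M UMIs, and in HDM 3 such cells carried 60 of 525. Without them the G2/M levels were 699 and 623 CPM. Of the 8 S and 8 G2/M members with at least 20 UMIs, 3 S members were past 1.5-fold lower (2810417H13Rik, Lig1 and Hist1h2ap) and 2 G2/M members higher (Cks1b and Racgap1). Over 4949 genes, 12.3% were lower and 7.88% higher, and the members' counts of 3 and 2 rest on few genes. Cks1b had 12 UMIs against 14 (41.0 against 18.5 CPM, 2.22, 0.94 to 5.17). In HDM, 1 T cell held 56 of the 105 Hist1h2ap UMIs, and in HDM+APM 1 cell held 22 of 26. The median log2 ratio was -0.18 for S and 0.16 for G2/M, against -0.03 over all genes. Hmgb2, the G2/M member highest in T cells, was at 339 CPM in HDM, 352 in HDM+APM and 336 in APM, and Smc4 at 140, 140 and 47.9 CPM. Against the 52 T cells of APM, HDM+APM was at 1.46 (0.92 to 2.42) for S and 1.55 (1.08 to 2.29) for G2/M. Without the cells that held 5 members these ratios were 0.95 and 1.29. Red cell markers summed to 9172 CPM in APM, 2619 in HDM and 71.7 in HDM+APM.

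B cells of HDM+APM (449) lay mostly in B cells 2 (404) and those of HDM (128) mostly in B cells 1 (119), so the clusters change with the library. The G2/M list was at 456 CPM in HDM+APM and 265 in HDM (1.72, 1.31 to 2.3), and the S list at 306 and 429 CPM (0.71, 0.57 to 0.90). In HDM 1 cell held 48 of the 89 S UMIs, and without the cells of both libraries that held 5 members the S ratio was 1.20. Of 14 G2/M members with at least 20 UMIs, 7 were past 1.5-fold higher and none lower, and of 10 S members 4 were lower and 1 higher, beside 17.6% of 6911 genes higher and 20% lower. With a pseudocount of 50 CPM none was higher and 1 was lower. Ube2c, Mki67 and Cenpf had 46, 29 and 26 UMIs in HDM+APM and 0 among the 207398 UMIs of HDM. The B cells of HDM+APM held 2384941 UMIs, so few UMIs of these genes would fall in HDM even at equal levels. In B cells 2 of HDM+APM, 5 cells with at least 5 members carried 424 of the 1048 G2/M UMIs. Racgap1, which acts in cytokinesis, was at 35.2 against 9.64 CPM, on 84 and 2 UMIs. Pcna was lower, at 45.7 against 82.0 CPM (0.56, 0.33 to 0.99). The median log2 ratios were 0.04 for S and 0.51 for G2/M, against -0.04 over all genes. Median depth was 5226 UMIs in HDM+APM and 1382.5 in HDM. B cell markers summed to 3951 and 4161 CPM in HDM+APM and HDM, recruited macrophage markers to 285 and 1302, alveolar macrophage markers to 1021 and 694, red cell markers to 34.8 and 2613 and epithelial markers to 706 and 256 CPM. Their part in these ratios was not tested.

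Of 35 regulators of the cycle that are not members, 22 were highest in Macrophage 7 and 1 (E2f3, at 14.0 CPM) in Macrophage 10. Of the 22, 12 had no UMI among the 143010 of Macrophage 10, which allows up to 21.0 CPM by 3 counts. Cdc25a, Cdc25c, Mybl2 and Orc1 are 4 of them, and the other 8 were chosen for naming with levels after their values were seen. In Macrophage 7 Orc1 (5.79 CPM) and Cdc25c (4.13 CPM) were themselves below that limit, so their zeros show no difference. Cdc25a and Mybl2 were at 24.4 CPM each there. The interval of their ratio between the clusters reaches 1.09, so their zeros show no difference beyond counting error. The counts of 22 and 12 have no share over all genes beside them. Cyclins Ccne2 and Ccne1 were at 152 and 33.1 CPM in Macrophage 7, E2f1 at 80.6, E2f8 at 50.03, E2f7 at 34.3, Cdc6 at 36.4, Cdc45 at 34.7 and the replication-coupled chromatin assembly gene Chaf1a at 59.1 CPM. Uhrf1 was at 149 and 6.99 CPM in Macrophages 7 and 10, and Gmnn, which keeps origins from firing again, at 243 and 76.9 CPM. Others were led by cells outside the proliferating clusters. The 3 with the most UMIs were cyclin Ccnd2, highest in dendritic cells (1010 CPM against 206 in Macrophage 7), the inhibitor Cdkn1a, highest in dendritic cells (1114 CPM) but also at 355 CPM in Macrophage 7 against 116 in Macrophages 1 to 6 and 9, and cyclin Ccnd3, highest in T cells (195 CPM). Ccnd1 (68.3 CPM) and the inhibitor Cdkn2a (57.9 CPM) were highest in classical monocytes. Myc (89.2 CPM) and Wee1 (31.3 CPM) were highest in B cells 2.

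Among 8483 genes with at least 200 UMIs that are not members, those whose log2(CPM + 10) over the 17 clusters was most like the summed S list were Ncapd2 (Pearson r 0.93), Fignl1, Ube2t, Ncapd3 and Zfp367 (r 0.92). Most like the G2/M list were Cenpm (r 0.94), Dlgap5, Ckap2l, Kif23 and Mad2l1 (r 0.91). The clusters share libraries and depth, so these values are descriptions. In Macrophage 10 the S-like genes were at 6.99 to 27.97 CPM and 52.1 to 126 CPM in Macrophage 7. The G2/M-like genes were at 21.0 to 69.9 CPM and 37.2 to 99.2 CPM.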

How the data were processed

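The authors deposited UMI counts, not normalized, for 13838 genes in 9925 cells of 4 libraries, with a table of each cell's library and cluster. Seurat 2.3.4, Cell Ranger 2.2.0 and build mm10 appear, with no stated role, in the submitters' processing notes. Whether cell cycle genes entered the clustering is not stated in these sources. Deposited cells held 496 to 9998 UMIs and all were kept. Python 3.11.15, NumPy 2.4.6, SciPy 1.17.1 and pandas 2.3.3 were used. UMIs were summed by cluster and library and scaled to CPM with exact Poisson intervals, and ratios of sums have exact conditional binomial intervals. Shares of cells have Clopper-Pearson intervals after 1000 UMIs were drawn per cell without replacement, leaving out shallower cells. Members were compared on log2(CPM + 10), a scale that understates changes of low genes, where both libraries together had 20 or more UMIs and each had 50 or more cells. The scripts were tested on simulated data. Promoter sequences are from RefSeq. The members, lists and tests were chosen with earlier results of these data known. Values in full are given for the 6 members of each list with the most UMIs, and per comparison for up to 4 members of each list with the largest log2 ratio. Others named were chosen after their values were seen. With 1 library per group there was no test and no p-value. Alternatives covered the pseudocount, the minimum of UMIs, drawing to equal depth, means over cells, list membership and left-out cells.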

Additional observations from a re-analysis of the deposited data

Results flagged for a closer look

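Some sums of a list moved in opposite directions between cell groups under the same contrast, and the difference between them was not tested. With APM set against control, the S list was lower in Macrophage 5 (ratio 0.73) and higher in Macrophage 7 (ratio 1.09). Under the same contrast the G2/M list was lower in Macrophages 1 to 6 and 9 (ratio 0.90) and higher in Macrophage 7 (ratio 1.12). It was also higher in Macrophage 9 taken alone (ratio 1.62), one of the pooled clusters, where 1 APM cell held 30 of 168 G2/M UMIs. The pool mixes clusters whose shares differ between the libraries. In Macrophages 1, 2, 3 and 5 taken alone the G2/M ratios were 0.98, 0.98, 0.97 and 0.88. Each library is 1 pool of mice, so the spread between animals behind these ratios is unknown.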

How the results depend on the processing

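No paired analysis was possible because each group is 1 library. Of the recomputed values, 108 stayed within counting error, 55 moved by more and 2 reversed; the causes were not tested. Of the 108, 2 ratios crossed 1 without the cells that held 5 members: S of HDM+APM to APM in T cells (1.46 to 0.95) and S of APM to control in Macrophages 1 to 6 and 9 (0.99 to 1.01). Without Pcna the S level was 3536 CPM in Macrophage 7, 197 in Macrophages 1 to 6 and 9 and 330 in Macrophage 8. Without Hmgb2 the G2/M level was 4422 CPM in Macrophage 7, 3748 in Macrophage 10, 495 in Macrophages 1 to 6 and 9 and 475 in Macrophage 8. As a mean over cells, S was 323 CPM in Macrophages 1 to 6 and 9 and 606 in Macrophage 8, and G2/M 5286 in Macrophage 7 and 818 in Macrophage 8. With the 5 genes of neither list added (H2afz and H2afv to S, the others to G2/M), the S share was 40.5% in Macrophage 7, 39.4% in Macrophage 10 and 48.0% in Macrophages 1 to 6 and 9. The low S share of Macrophage 10 is thus lost when the histone variants are counted as S. Both went towards G2/M within cells, but so did Hist1h2ap and 2810417H13Rik of the S list. Without Pcna and Hmgb2 the S share was 28.5% in Macrophages 1 to 6 and 9. The share of cells past the minimum was, outside Macrophages 7 and 10, 1.66% with 500 UMIs drawn, 0.63% for 5 members, 19.8% for 2 and 3.43% for 46 members, and in Macrophage 7 72.0%, 75% and 96.3% for the first 3 of these. For APM with control, the median log2 ratio of G2/M in Macrophage 7 was 0.33 with 1000 UMIs drawn. In Macrophages 1 to 6 and 9 that of G2/M was -0.38 with a pseudocount of 1 CPM, -0.052 with 50 and -0.013 with clusters weighted equally, which put S at -0.17. For HDM+APM with HDM, the S median was -0.54 in T cells with 1000 UMIs drawn, and in B cells it reversed to -0.10 as a mean over cells. Without the cells that held 5 members, the B cell S ratio reversed to 1.20, the Macrophage 8 S ratio of HDM to control was 0.58 and the Macrophage 8 G2/M ratio of HDM+APM to HDM was 1.25. Without Hist1h2ap the Macrophage 8 S ratios to control were 0.60 for HDM and 0.81 for APM. As means over cells, the Macrophage 8 ratios were 0.33 for S and 0.48 for G2/M (HDM with control), 1.34 for G2/M (APM with control), 1.94 for G2/M (HDM+APM with HDM) and 0.62 for S (HDM+APM with APM), and the B cell ratios 0.99 for S and 2.3 for G2/M. With a pseudocount of 1 CPM, members past 1.5-fold (APM with control) were 1 lower in Macrophage 7, 8 lower and 1 higher in Macrophages 1 to 6 and 9, 13 lower and 1 higher in Macrophage 5, 1 higher in Macrophage 1, and 13 lower and 2 higher in Macrophage 3. With 50 CPM they were 0 lower in Macrophages 1, 3 and 5, 2 higher in Macrophage 9, 0 higher and 0 lower in T cells, and 0 higher and 1 lower in B cells. Alternatives on restricted members, left-out cells, Hist1h2ap, pseudocounts for counts of members and means for list ratios were chosen after seeing the data. HDM is the shallowest library, and Macrophage 7 has 12 cells each from HDM and HDM+APM.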
